A study of Homo sapiens with 4 samples.

Results

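The genes of the CDK7 complex and of the other transcriptional kinases were examined for chromatin loops in a Hi-C study of MDA-MB-231, a human triple-negative breast cancer cell line. The 8 genes were CDK7, CCNH, MNAT1, CDK12, CDK13, CCNK, CDK9 and CCNT1. A loop belonged to a gene when at least 1 of its anchors overlapped the gene body extended by 20 kb on each side, in GENCODE gene models of GRCh37. By this rule 101 of 77275 loop calls belonged to the 8 genes, and they made up 45 of 34742 distinct loops. Wild-type cells received either vehicle (DMSO) or 75 nM THZ1, a covalent CDK7 inhibitor that also binds CDK12 and CDK13, for 48 h. There were 2 libraries per condition. They are described as technical replicates, so every p-value measures the spread between these libraries only.

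CDK7 binds cyclin H, the product of CCNH, and MAT1, the product of MNAT1, to form the CDK-activating kinase, which phosphorylates cell cycle CDKs and, as part of the general transcription factor TFIIH, the tail of the largest RNA polymerase II subunit. CDK12 and CDK13 each pair with cyclin K, the product of CCNK, and phosphorylate the same tail during elongation. CDK9 and cyclin T1, the product of CCNT1, form P-TEFb, which releases paused polymerase. A chromatin loop is a pair of distant sites that touch more often than their surroundings, and many are held by cohesin between CTCF sites that face each other. The assay measures contacts, and gene expression was not measured in these files.

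The anchors of the loops that recurred were first set against the letters of the CTCF core motif, because this is the sequence feature that loop anchors are known for. The core searched was CCA, then 2 bases of any kind, AG, 2 bases of any kind, and GGC, on both strands, and a strict form required a G directly after AG. The core lay in 25.5% of all 5 kb anchors in the study and the strict form in 11.05%. Only 1 of the 32 distinct loops with 5 kb anchors had core matches that faced each other, the 50 kb loop between TOR2A and CDK9. Over all loop calls with 5 kb anchors the facing arrangement occurred in 5.94% for the core and in 1.42% for the strict core. The strict facing pair of the CDK9 loop is shown 5′ to 3′ on the motif's own strand in GRCh37, with the core in capitals and 9 bases on each side. The left match lies outside protein-coding gene bodies, and the right one lies within 250 bases upstream of the CDK9 start. The CDK9 anchor also held 1 minus-strand core match that was not strict and 1 strict match on the plus strand in a CDK9 exon, which points away from TOR2A.
TOR2A anchor, plus strand, chr9:130497698-130497727: gcagcaggaCCAGAAGGTGGCctccagggg
CDK9 anchor, minus strand, chr9:130547819-130547848: cccgagagcCCAGGAGGGGGCgcgttataa
At CDK13 the anchors of the 325 kb loop from the RALA start to the CDK13 start each held a strict match, both on the minus strand, so that they pointed the same way.
RALA anchor, minus strand, chr7:39661903-39661932: gcagagagcCCACAAGGGGGCcattgcaga
CDK13 start anchor, minus strand, chr7:39989394-39989423: tccccccctCCACGAGGAGGCtcctggtgt
For loops of CDK13 and CDK12 that every library called, a single anchor held a match, the former within a CDK13 intron and the latter outside protein-coding gene bodies.
CDK13 intron anchor, minus strand, chr7:40092258-40092287: tctgaaaagCCACTAGATGGCgatactgcc
CDK12 downstream anchor, plus strand, chr17:37778370-37778399: tcgtttgtgCCACCAGAGGGCagcctccgc
Of the 10 loops found in all 4 libraries, 5 held no core match at either anchor (1 at CCNH, 3 at MNAT1 and 1 at CCNK), 3 held one at a single anchor and 2 at both. The 2 were both at CDK9. In the 135 kb loop to PIP5KL1, with the anchors as called in THZ1, no matches faced each other. The 2 minus-strand matches at its CDK9 anchor pointed away from the plus-strand match at its PIP5KL1 anchor. A match is a run of letters and no measure of CTCF binding.

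At CDK7 itself, the target of the inhibitor, loops were listed only in the vehicle libraries. Vehicle replicates 1 and 2 each listed 2 loops and both THZ1 libraries listed 0. The 4 calls were 4 distinct loops, each found in 1 library, so no CDK7 loop recurred. Vehicle replicate 1 called a 50 kb loop from the start of CCNB1, the mitotic cyclin B1 gene, to the start of MRPS36 at 3.42 times the local expectation, with 30 observed contacts. It also called a 260 kb loop from the CDK7 start to an intron of OCLN, a tight junction gene, at 3.95 times expectation with 18 contacts. Vehicle replicate 2 called a 50 kb loop from the start of CENPH, a kinetochore gene, to the CDK7 start at 2.23 times expectation with 42 contacts. Its other loop ran 135 kb from the CDK7 start to the shared start region of AK6, TAF9 and RAD17 at 5.21 times expectation with 13 contacts. Both vehicle libraries thus had an anchor at the CDK7 start, whereas the nearest loop anchor of either THZ1 library lay 76.7 kb from the gene body. Such a pattern, loops in both vehicle libraries and none in either THZ1 library, was seen at 698 of 17022 protein-coding genes with a loop, or 4.10%.

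The 250 bases upstream of the CDK7 start, which border the start site where the vehicle anchors lay, are printed beside those of CDK9, whose start was an anchor in every library. Both are on the plus strand of GRCh37. Capitals mark a GC box, spelled GGGCGG, on either strand. A CCAAT box is marked in the same way. The third element marked was the TATA box, spelled TATAAA. The CDK7 window held none of the 3 elements, and the CDK9 window held 7 GC boxes and, on the opposite strand, 1 TATA box. Of 20090 windows of the same length, 48.8% held a GC box, 33.1% a CCAAT box and 10.1% a TATA box. Among the 8 genes, 5 held a GC box, 2 a CCAAT box and 1 a TATA box. The windows of CDK12 and MNAT1, which had loops in every library, also held none of the elements. That of CCNT1, which had 0 loops, held 3 GC boxes and 1 CCAAT box. Whether the elements go with loops was not tested.
CDK7, chr5:68530372-68530621: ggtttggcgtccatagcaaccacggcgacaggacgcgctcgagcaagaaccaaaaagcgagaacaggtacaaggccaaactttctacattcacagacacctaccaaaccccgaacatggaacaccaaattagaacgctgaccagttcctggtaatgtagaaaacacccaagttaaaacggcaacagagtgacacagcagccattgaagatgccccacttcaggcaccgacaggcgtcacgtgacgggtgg
CDK9, chr9:130547708-130547957: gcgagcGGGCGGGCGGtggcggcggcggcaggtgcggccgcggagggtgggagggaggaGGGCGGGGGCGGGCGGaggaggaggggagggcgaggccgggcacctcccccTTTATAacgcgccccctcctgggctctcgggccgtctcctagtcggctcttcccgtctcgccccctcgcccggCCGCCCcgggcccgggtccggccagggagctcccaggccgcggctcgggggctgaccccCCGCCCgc

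**Figure D1:**
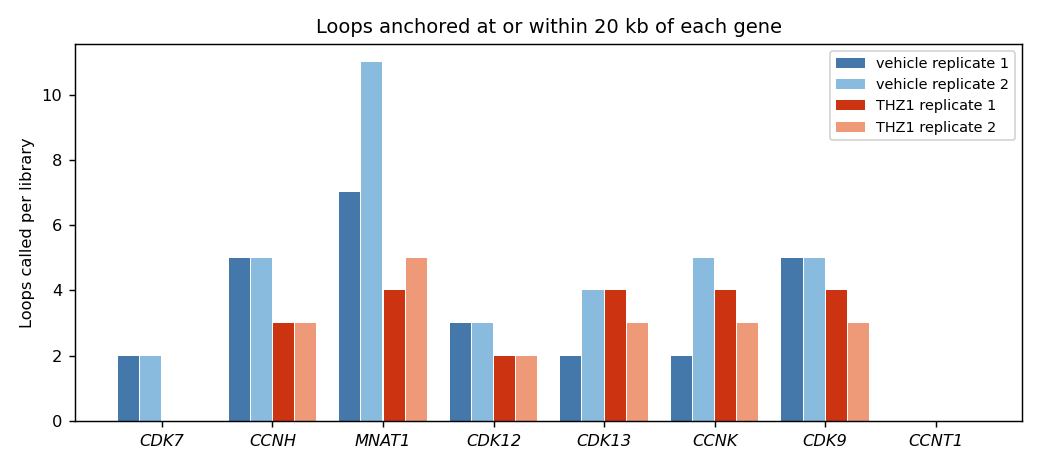
Number of loops called per library (y axis) at each of the 8 genes (x axis), 1 bar per library, vehicle in blue and THZ1 in red. CDK7 has 2 loops in each vehicle library and 0 in each THZ1 library, MNAT1 has the most in each vehicle library (7 and 11), and CCNT1 has 0 throughout.

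Across the 8 genes, vehicle libraries listed 26 and 35 loops and THZ1 libraries 21 and 19. Both THZ1 libraries were below both vehicle libraries. The means were 30.5 ± 6.36 and 20 ± 1.41 (SD, n = 2 each), a ratio of 1.53 and a difference of -0.59 on the log2 scale, with an exact two-sided permutation p of 0.333, the smallest that 2 against 2 libraries can give. With anchors in the gene bodies alone, the difference was -0.17 (exact permutation p = 0.667, n = 2 each) and the libraries of the conditions overlapped. The loop lists as a whole were also shorter with THZ1, at 20768 and 24219 loops in vehicle and 17222 and 15066 in THZ1, a log2 difference of -0.48. The 8 genes took 0.125% and 0.145% of all vehicle loops and 0.122% and 0.126% of all THZ1 loops. Read depth is not in the files, and its part in the shorter lists was not tested.

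By gene, both THZ1 libraries listed fewer loops than both vehicle libraries at 5 of the 7 genes with a loop (CDK7, CCNH, MNAT1, CDK12 and CDK9), and at 0 genes more. Over all protein-coding genes with a loop, 28.9% had fewer with THZ1 in this sense and 3.01% had more. The result depended on the flanks, the anchor width and the libraries. With only 10 kb anchors 1 gene had fewer loops and 1 had more, and without vehicle replicate 2 there were 2 genes with more. When an anchor had to overlap the gene body itself, the order held at 2 of 7 genes, CDK7 and CCNH, against 24.3% of all genes. With 50 kb flanks it held at 4 of 8, against 34.4% of all genes. The loops behind the drop at MNAT1 and CDK9 were therefore anchored beside these genes and not in them.

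**Figure D2:**
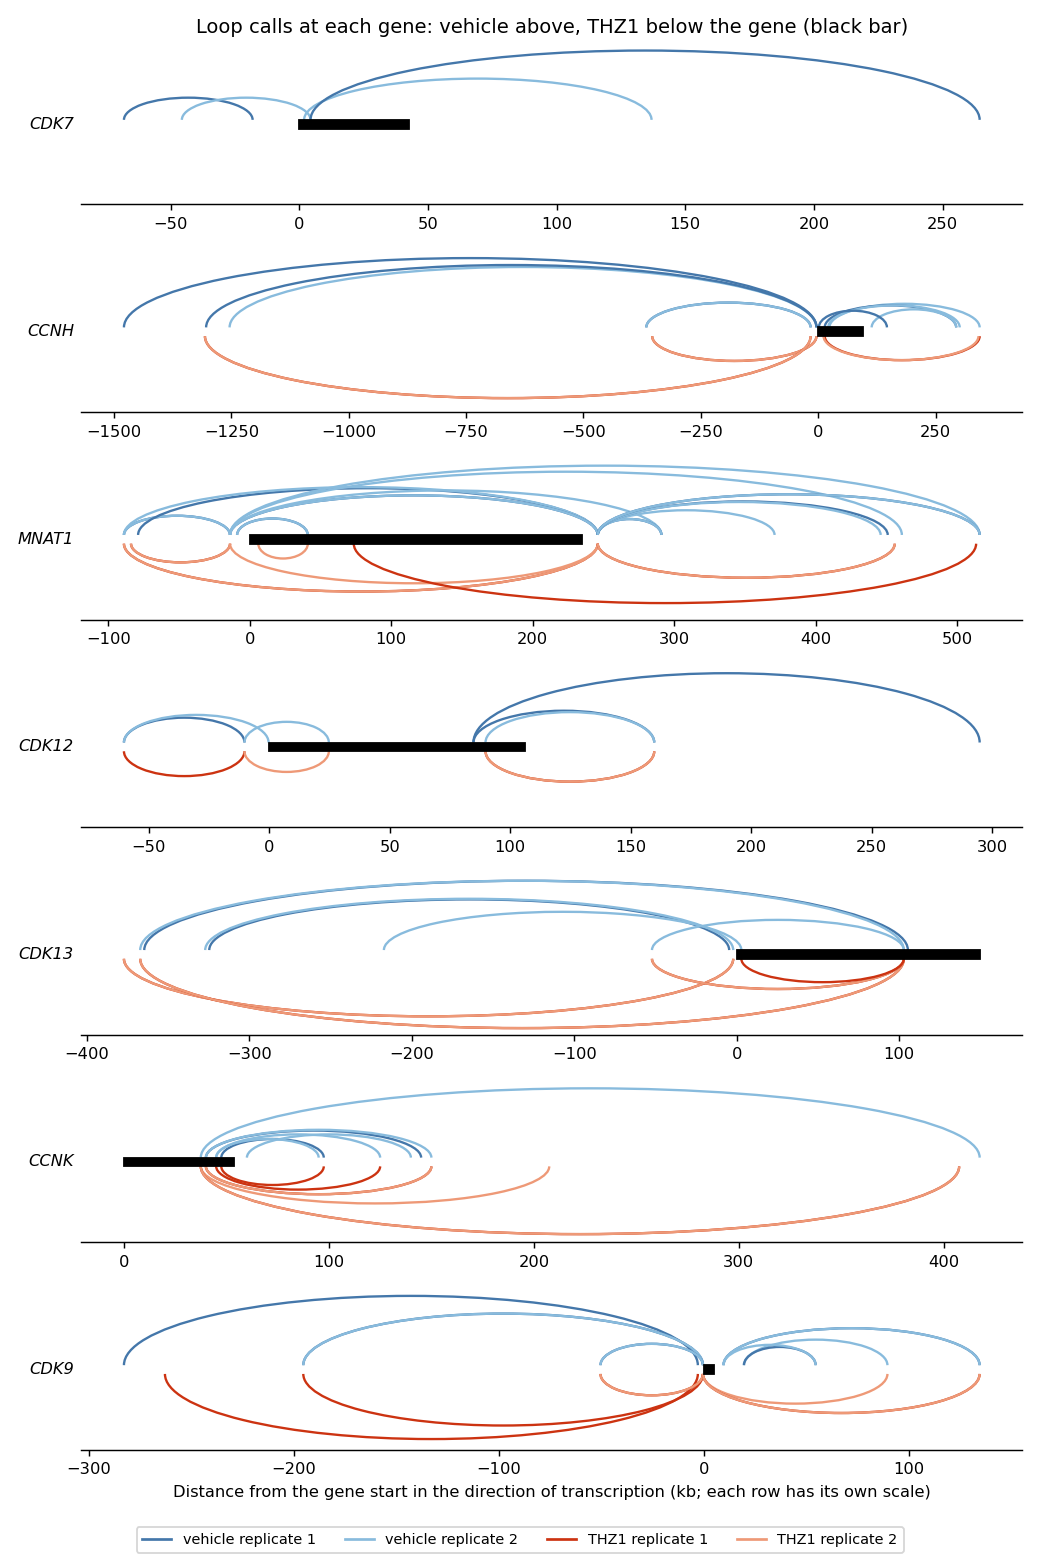
Loop calls at the 7 genes with loops, drawn as arcs between anchor midpoints against the distance from the gene start in kb, with vehicle libraries above and THZ1 libraries below the gene body (black bar). Identical arcs lie on top of each other. CDK7 has arcs above the bar only, and most MNAT1 arcs start just outside the gene.

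Within the CDK-activating kinase, the loop counts of all 3 genes together were 14 and 18 in vehicle and 7 and 8 in THZ1. CCNH had 5 loops in each vehicle library and 3 in each THZ1 library. None of its 8 distinct loops was of 90 kb or less, and they spanned 145 to 1475 kb. The 1290 kb loop from the upstream side of CCNH to MEF2C, a transcription factor gene, was called in 3 libraries with observed over expected contacts of 6.59 in vehicle replicate 1 and of 6.87 and 6.61 in the THZ1 libraries. The vehicle call had 25 kb anchors, of which the near one held the CCNH start, and the THZ1 calls had 10 kb anchors, so the vehicle value is not comparable with those of THZ1. A 1250 kb loop to the MEF2C side, 5.29 times expectation, was called in vehicle replicate 2 with 25 kb anchors. The CCNH loop found in all 4 libraries, 350 kb long, had values of 5.05 and 4.55 in vehicle at 10 kb anchors and 2.52 and 2.53 in THZ1 at 25 kb anchors. Since the anchor widths differed between conditions, these values are not comparable. The vehicle anchors held no gene, and the wider near anchor in THZ1 held the CCNH start. A 280 kb loop from a gene-free anchor to the 5′ part of CCNH was called in both vehicle libraries only, at 2.82 times expectation with 10 kb anchors and 6.10 with 5 kb anchors. A nearby loop of 330 kb into CCNH was called with 10 kb anchors in vehicle replicate 2 at 3.76 times expectation and in THZ1 replicate 1 at 3.84, and with 5 kb anchors in THZ1 replicate 2 at 4.85.

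MNAT1 had 7 and 11 loops in vehicle and 4 and 5 in THZ1, and it ranked at percentile 96.0 of all genes by its mean loop count. Of its 12 distinct loops, 10 were anchored only in the flanks, at SIX4, a homeobox gene, upstream or at the shared start region of TRMT5 and SLC38A6 downstream. Loops anchored in the gene body numbered 1 in each of the 4 libraries. The 260 kb loop that joined SIX4 to the TRMT5 and SLC38A6 start across the whole gene had values of 5.68 and 7.21 in vehicle and 4.46 in THZ1 replicate 2, and THZ1 replicate 1 did not list it. The 200 kb loop from that start to the region around the PRKCH start was called in every library. It was at 4.75 and 6.29 in vehicle and 4.30 and 4.14 in THZ1, and both THZ1 values lay below both vehicle values. Its observed contacts overlapped between conditions, at 19 and 31 in vehicle and 23 and 21 in THZ1. How many of all loops had separated values was not counted. From the TRMT5 and SLC38A6 start, 2 loops were listed by both vehicle libraries and by no THZ1 library. The 45 kb loop into an intron of SLC38A6, an amino acid transporter gene, was at 2.24 and 2.12 times expectation. The 270 kb loop into an intron of PRKCH, a protein kinase C gene, was at 5.92 and 6.75 times expectation.

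The CDK12, CDK13 and CCNK loops together numbered 7 and 12 in vehicle and 10 and 8 in THZ1, so that the conditions overlapped. CDK12 had 3 loops in each vehicle library and 2 in each THZ1 library. Its 75 kb loop from the 3′ part of the gene to a gene-free anchor was in all 4 libraries, at 6.97 and 3.93 in vehicle and 5.09 and 4.58 in THZ1, and both THZ1 values lay between the vehicle values. The 50 kb loop between the starts of FBXL20 and MED1, a Mediator subunit gene just upstream of CDK12, was at 3.73 in vehicle replicate 1 and 2.55 in THZ1 replicate 1. The matching call of vehicle replicate 2 ran 60 kb from FBXL20 to the CDK12 start, at 2.53. A 35 kb loop from the MED1 start into CDK12 was called in 1 library of each condition, at 2.67 in vehicle and 2.57 in THZ1. A 210 kb loop to IKZF3, a lymphoid transcription factor gene, was called in vehicle replicate 1 only, at 7.05 times expectation with 14 contacts.

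CDK13 had 2 and 4 loops in vehicle and 4 and 3 in THZ1. Among the loops at the 8 genes found in every library, the 470 kb loop from an intron of YAE1 to an intron of CDK13 had the highest mean. Its values were 6.04 and 14.4 in vehicle and 8.33 and 6.49 in THZ1. The vehicle libraries enclosed both THZ1 libraries, and vehicle replicate 1 was called at 10 kb anchors and the others at 5 kb. A 155 kb loop to the same intron anchor was at 11.3 in vehicle replicate 2 and at 5.85 and 5.87 in THZ1. The CDK13 start carried 1 loop per library, but a different one in each condition. Both vehicle libraries joined it to the start of RALA, a small GTPase gene, over 325 kb at 3.77 times expectation with 10 kb anchors and 9.76 with 5 kb anchors. Both THZ1 libraries joined it to the start of YAE1 over 375 kb at 2.90 and 2.79 times expectation, with 25 kb anchors and 86 and 80 contacts. When loops within 50 kb of each other counted as 1, the THZ1 loop was no longer specific to its condition.

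CCNK had 2 and 5 loops in vehicle and 4 and 3 in THZ1, and equal means of 3.5. All of its 5 distinct loops left the 3′ part of the gene, where it overlaps CCDC85C. The 105 kb loop to a gene-free anchor was in all 4 libraries. It was at 9.40 and 5.82 in vehicle and 5.17 and 4.85 in THZ1, both THZ1 values below both vehicle values. Its observed contacts were 20 and 20 in vehicle and 21 and 19 in THZ1. The expected contacts were 2.13 and 3.43 in vehicle and 4.06 and 3.92 in THZ1, so the order came from the expectation. The share of all loops with separated values was not counted. The 380 kb loop to EML1, a microtubule-binding protein gene, was at 6.41 in vehicle replicate 2 and at 6.04 and 5.91 in THZ1. A 50 kb loop within CCDC85C was at 5.17 in vehicle replicate 2 with 5 kb anchors, and at 3.05 in vehicle replicate 1 and 2.86 in THZ1 replicate 1 with 10 kb anchors, and an 80 kb loop to the CCDC85C start was at 5.19 in vehicle replicate 2 and 5.09 in THZ1 replicate 1.

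P-TEFb was split between a gene with many loops and a gene with none. CDK9 had 5 loops in each vehicle library and 4 and 3 in THZ1. Its start was an anchor of 3 and 2 loops in vehicle and 4 and 3 in THZ1. The THZ1 counts include loops whose matching vehicle calls lay beside the start, so the counts are not a like comparison. These were the loop to PIP5KL1 in both THZ1 libraries and that to AK1 in THZ1 replicate 2. The 50 kb loop to the start of TOR2A, whose facing CTCF core matches are printed above, had 35 and 42 contacts in vehicle and 47 and 31 in THZ1. Relative to expectation it stood at 5.73 and 6.21 in vehicle and 5.66 and 3.84 in THZ1. The 135 kb loop on the other side, to PIP5KL1, was at 5.16 and 5.02 in vehicle and 5.62 and 4.92 in THZ1, and the conditions overlapped. In THZ1 it was anchored at the CDK9 start, and in vehicle just downstream of the gene with a size of 125 kb, within the 20 kb matching distance, so it entered the start counts of THZ1 only. A 70 kb loop beside CDK9, from FPGS to the AK1 start, was at 3.57 in vehicle replicate 2. The matching call of THZ1 replicate 2 reached the same AK1 anchor from the CDK9 start, over 90 kb, at 3.48. The loop of CDK9 that both vehicle libraries listed and neither THZ1 library did joined FPGS, a folate enzyme gene downstream of CDK9, to an intron of ENG. It was at 2.47 times expectation over 35 kb in vehicle replicate 1, and at 2.46 over 45 kb, from an anchor at the FPGS start, in vehicle replicate 2. CCNT1 had 0 loops in every library, as did 15.3% of the 20090 genes, and its nearest loop anchor lay 34.2 kb away in all 4 libraries.

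**Figure D3:**
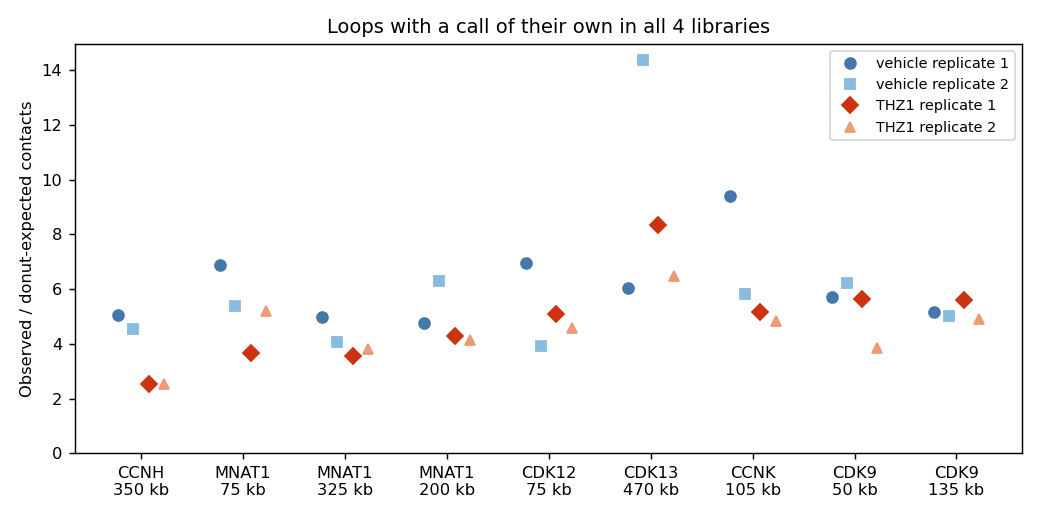
Observed over expected contacts (y axis) of the 9 loops that had a call of their own in every library, 1 point per library, vehicle in blue and THZ1 in red. Vehicle and THZ1 points overlap at CDK12, CDK13 and the 135 kb CDK9 loop, and the CCNH points were called at different anchor widths in vehicle and THZ1.

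Of the 45 distinct loops, 10 were found in all 4 libraries (22.2%) and 17 in a single one (37.8%), against 26.0% and 39.5% of all distinct loops. The 80 kb CCNK loop is among the 10 through neighbouring calls within 20 kb. In all, 19 loops were listed in vehicle libraries only, 4 in THZ1 libraries only and 22 in both conditions. The shares listed in vehicle only, THZ1 only and both conditions were 42.2%, 8.89% and 48.9%, against 37.1%, 14.4% and 48.5% of all distinct loops. The stricter set, in both libraries of one condition and neither of the other, held 5 vehicle loops (1 at CCNH, 2 at MNAT1, 1 at CDK13 and 1 at CDK9) and 1 THZ1 loop (at CDK13). These were 11.1% and 2.22% of the 45, against 9.72% and 2.29% of all distinct loops, so the shares at the 8 genes were near the background. The counts moved with the settings. They were 1 and 1 with only 10 kb anchors, 7 and 3 when matched within 10 kb, and 3 and 0 within 50 kb.

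The share of loops of 90 kb or less at the 8 genes was 34.6% and 37.1% in vehicle and 28.6% and 31.6% in THZ1, a difference of -5.80 percentage points (exact two-sided permutation p = 0.333, n = 2 each). The 95% Wilson intervals of the 4 libraries overlapped widely. The interval was 19.4% to 53.8% for the first vehicle library and 13.8% to 49.96% for the first THZ1 library. They cover counting error only. Over all loops the share went from 37.3% and 36.8% to 26.2% and 25.5%. The median size at the 8 genes did not separate the conditions, at 200 and 155 kb in vehicle and 195 and 170 kb in THZ1, whereas the medians over all loops were 140 kb with vehicle and 200 kb with THZ1, the same in the 2 libraries of a condition.

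**Figure D4:**
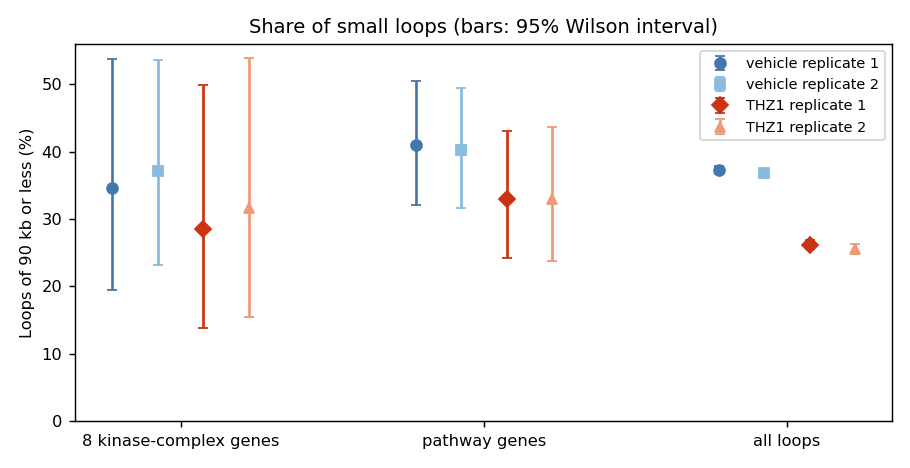
Share of loops of 90 kb or less in percent (y axis) for the 8 genes, the pathway genes and all loops (x axis), 1 point per library with its 95% Wilson interval. THZ1 points lie below vehicle points in each set, and the intervals at the 8 genes overlap.

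Loop strength was compared as observed over expected contacts. The median over each library's own loops at the 8 genes was 5.02 and 5.19 in vehicle and 4.30 and 4.46 in THZ1, a log2 difference of -0.22 against -0.18 over all loops (exact two-sided permutation p = 0.333 for the 8 genes). With only 5 kb anchors the difference at the 8 genes was -0.12 (exact permutation p = 0.333). With only 10 kb anchors it turned to 0.30 (exact permutation p = 1). Observed contacts were not lower, with medians of 22.5 and 22 in vehicle and 26 and 23 in THZ1. The expected contacts were higher with THZ1, with medians of 4.70 and 4.77 in vehicle and 5.51 and 5.07 in THZ1. All these medians pool 5, 10 and 25 kb anchors, whose mix differed between libraries. The share with 5 kb anchors was 65.4% and 80% in vehicle and 61.9% and 73.7% in THZ1.

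A test of single loops needed the same loop in every list. Among 2623 loops with identical anchors in all 4 libraries, 648 were weaker with THZ1 (24.7%) and 2 were stronger (0.0762%) by edgeR's quasi-likelihood test at a Benjamini-Hochberg adjusted p of 0.05. Without the expectation, on TMM-normalized contacts, the split was 114 weaker and 73 stronger. DESeq2 called 17 weaker and 1 stronger, and without any single library edgeR called 0 weaker loops. The TOR2A to CDK9 loop was the only one of these at the 8 genes, and its change of -0.33 ± 0.22 (SE) on the log2 scale did not pass (edgeR adjusted p = 0.283). The median over all loops tested was -0.41.

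Allowing anchors of 1 width to lie within 20 kb gave 4985 loops, of which 591 were weaker (11.9%) and 6 stronger (0.12%). On TMM-normalized contacts without the expectation the split was 135 weaker and 70 stronger, and without any single library edgeR called 0 to 14 weaker. The set held 7 loops at the 8 genes, of which 0 passed in either direction in edgeR's test and 0 had an unadjusted p under 0.05. Their median change was -0.33, against -0.37 over all loops tested, and 6 of 7 were negative. On TMM-normalized contacts without the expectation their median was 0.020 and 2 of 7 were negative. The CCNK loop of about 110 kb changed by -0.52 ± 0.29 (SE, edgeR adjusted p = 0.243) and the loop from the TRMT5 and SLC38A6 start beside MNAT1, of about 207.5 kb, by -0.41 ± 0.25 (edgeR adjusted p = 0.325). Leaving out a library moved the former between -0.90 (without vehicle replicate 2) and -0.22 (without vehicle replicate 1), and the latter between -0.57 (without vehicle replicate 1) and -0.17 (without vehicle replicate 2). The CDK9 to PIP5KL1 loop was at 0.05 ± 0.24 (edgeR adjusted p = 0.899).

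**Figure D5:**
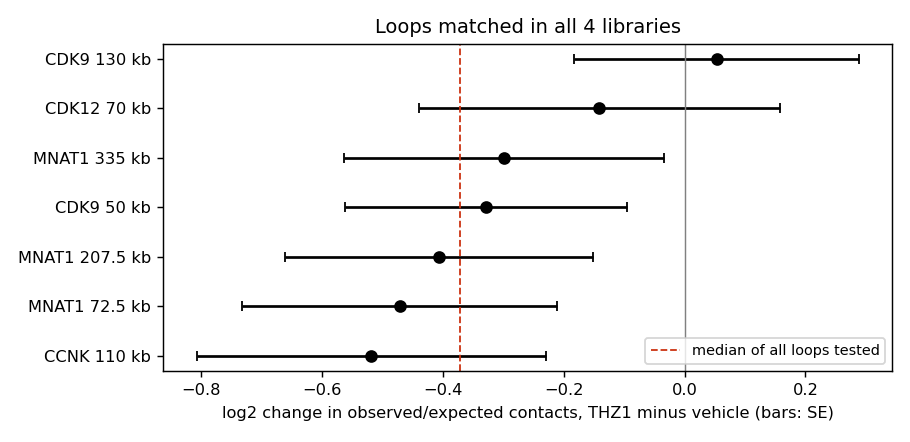
Change in observed over expected contacts, THZ1 minus vehicle on the log2 scale (x axis), with its SE for the 7 loops matched in all 4 libraries (y axis, named by gene and median size). The points lie from -0.52 to 0.05 around the median of all loops tested, -0.37 (dashed line).

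Contact domains, squares of enriched contact called by Arrowhead, enclosed few of the starts. In vehicle replicate 1 the MNAT1 start lay in a domain of 650 kb, and in vehicle replicate 2 none of the 8 starts did. In THZ1 replicate 1 domains enclosed the starts of CDK12 (270 kb) and CDK9 (180 kb). In THZ1 replicate 2 they enclosed those of CDK12 (250 kb), CDK9 (170 kb) and CDK7 (210 kb). The CDK12 and CDK9 starts thus lay in a domain in each THZ1 library and in no vehicle library. The share of all gene starts with this pattern was not counted. More domains were listed with THZ1 in general, 2477 and 2345 against 1198 and 1398, and the share of all gene starts within one was 28.8% and 28.3% against 15.5% and 18.1%.

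The other genes of the transcription kinase pathway, 35 in all, comprised TFIIH core subunits, P-TEFb regulators, the Mediator kinase module, pausing factors, the CDK11 kinases with cyclin L, and CDKs that the CDK-activating kinase phosphorylates. They had 105 and 112 loops in vehicle and 91 and 82 in THZ1, a log2 difference of -0.33 (exact two-sided permutation p = 0.333), which was -0.029 with only 10 kb anchors (exact permutation p = 1). Of the 34 with a loop, 8 had fewer in both THZ1 libraries than in both vehicle libraries and 1 had more, against the 28.9% and 3.01% of all genes given above. CDK2, a cell cycle kinase activated by CDK7, had 3 and 2 loops in vehicle and 1 and 0 in THZ1. POLR2A, the largest subunit of RNA polymerase II, had 8 and 9 in vehicle and 3 and 4 in THZ1. SUPT4H1, a subunit of the elongation factor DSIF, had 2 in each vehicle library and 1 in each THZ1 library. GTF2H1, a TFIIH core subunit, had 5 and 4 in vehicle and 3 and 2 in THZ1.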

How the data were processed

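The study's Hi-C libraries (Arima kit) were aligned to hg19 and processed by the authors with Juicer 1.6. Loops were called by the authors per library with juicer_tools 1.19.02 (HiCCUPS) at 5, 10 and 25 kb anchors and merged. The deposited lists give observed contacts as counts, donut and bottom-left expectations as signal, and the donut FDR as q-values. The deposited domain lists give an Arrowhead score per 10 kb-grid domain. The authors' 2 tables of differential loops hold their own comparisons and were not used.

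The members and lists were chosen with earlier results of these data known. Calls whose anchor midpoints all lay within 20 kb of each other formed a distinct loop, and a library counted as calling it when it had a call within 20 kb. Loops of 90 kb or less were called small. All 8 genes are named, with up to 4 loops each by number of calling libraries and then mean observed over expected contacts, every condition-specific loop, partner genes at the other anchor, and the 4 pathway genes with the largest log2 ratio among those with separated counts above 0 in each condition. A few loops and 1 pathway gene are not reported here. Library values were compared by exact permutation. Loop strength was fitted with edgeR 4.0.16 (quasi-likelihood, log expectation as offset) and with DESeq2 1.42.0 in R 4.3.3, after tests on simulated data with 200 changed loops. Alternatives comprised other flanks, anchor widths, FDR, matching distances, expectations and leaving out each library. Sequences came from GRCh37, in which all loop anchors lay within the chromosome ends. The sequencing depth is not given in the files.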

Additional observations from a re-analysis of the deposited data

How the results depend on the processing

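The lower loop count at the 8 genes kept its direction under all 9 alternatives, and so did the pathway count (9) and the small loop share (10), but not always its size. The log2 difference at the 8 genes was -0.17 with no extension (exact permutation p = 0.667) and that of the pathway -0.029 with only 10 kb anchors (exact permutation p = 1). Leaving out 1 library gave log2 differences of -0.81 to -0.38 for the count (the latter without vehicle replicate 2) and -0.40 to -0.25 for the pathway, -7.31 to -4.30 percentage points for the small share, and -0.25 to -0.19 for the median observed over expected contacts. The difference in that median was -0.12 with only 5 kb anchors and turned to 0.30 with only 10 kb anchors. The number of genes with fewer loops was 2 with no extension, 1 with only 10 kb anchors and 5 to 6 when a library was left out. The number with more was 1 with only 10 kb anchors and 0 to 2 when a library was left out. Loops in both vehicle libraries only numbered 2 with no extension, 3 with only 5 kb anchors, 1 with only 10 kb anchors and 3 when matched within 50 kb. Loops in both THZ1 libraries only numbered 2 with 50 kb extensions, 0 with only 5 kb anchors, 3 when matched within 10 kb and 0 within 50 kb. Leaving out 1 library, which lets 1 library define a condition, gave 7 to 14 and 2 to 4. Whole gene bodies within domains gave a mean difference of 1 gene between conditions in place of 2, and leaving out a library gave 1.5 to 2.5.

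The change of the TOR2A to CDK9 loop was -0.64 to -0.08 when a library was left out, with edgeR adjusted p from 0.132 to 0.858, and 0.034 on TMM-normalized contacts without the expectation. On that scale the matched loops of CCNK, CDK12, CDK9 (50 kb), CDK9 (130 kb) and MNAT1 (335 and 72.5 kb) were at 0.020, 0.64, 0.039, -0.23, 0.18 and 0.020. Leaving out a library moved the CDK12 loop from -0.52 to 0.30, positive without vehicle replicate 1, and the 130 kb CDK9 loop from -0.049 to 0.14, negative without THZ1 replicate 1. The cause of these turns was not tested. The alternatives for single matched loops and leaving out libraries for the domains were chosen after seeing the data. Same-numbered libraries did not deviate together loop by loop (r = -0.0088 over 2623 loops and -0.023 over 4985). At such low contact counts, and with shifts shared by all loops removed, this correlation cannot tell whether the numbers pair them. With the replicate block the CDK9 loop changed by -0.34 (edgeR adjusted p = 0.259). With it 749 loops with identical anchors and 903 matched loops were weaker, against 648 and 591 without it. With 2 libraries per condition no permutation p could pass, and single loops rested on 12 to 86 contacts.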
